A study of Zea mays with 18 samples.

Results

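The 20 maize genes described here had more root transcript in the mutant line zmnrl1-m and less in the overexpression line ZmNRL1-OE than in B73, at low and at high nitrate alike. They were picked from the 41632 genes of the deposited count table by their measured levels. The level of a gene is its CPM, the read count scaled to a common library total, averaged over the 3 libraries of a group. The difference D of a line from B73 is the log2 ratio of their mean CPM, each with 1 added. A gene was taken when D was at least 0.8 in zmnrl1-m and at most -0.8 in ZmNRL1-OE at both nitrate levels, with more than 3 counts over the 6 libraries of each genotype. The same rule with its directions turned round gave 50 genes.

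The groups were roots of zmnrl1-m, ZmNRL1-OE and B73 seedlings, 10 days old, each held for 48 h at 0.15 mM nitrate (low) or at 15 mM nitrate (high). Each of the 6 groups had 3 libraries of messenger RNA, and total counts ran from 21905877 to 38967759 in the lines and to 39003607 in B73. B73 is the inbred maize line behind the reference genome, zmnrl1-m is labelled a mutant and ZmNRL1-OE an overexpressor of ZmNRL1. The labels used here give neither the mutant's lesion, nor the promoter of the transgene, nor the inbred background and the number of independent events of either line. Effects of ZmNRL1 and of a line's background on these genes therefore cannot be told apart. The level of ZmNRL1 itself was not analysed here, because identifiers in the files come without gene names.

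Nitrate is the main nitrogen source of maize in aerated soils and also a signal that roots read. Transporters of the root surface take it up, nitrate and nitrite reductases turn it into ammonium, and glutamine synthetase brings the ammonium into amino acids. Roots short of nitrate shift the transcripts of many genes of uptake, assimilation and growth. The series title places ZmNRL1, a protein with DUF630 and DUF632 domains, among the positive regulators of the nitrogen stress response. The 20 genes are given by identifier, and no function can be assigned to them from the files.

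One pair of libraries stood apart in a way that touches these genes. In the 2 B73 libraries of replicate number 1, 18 genes had at least 3 CPM at both nitrate levels while the other 4 B73 libraries had at most 0.1 CPM. The same count was 0 for every other replicate number of every genotype. Of those 18 genes, 8 had at least 3 CPM in all 6 zmnrl1-m libraries and 8 had it in all 6 ZmNRL1-OE libraries. At most 0.1 CPM in all 6 libraries was seen for 4 of the 18 in zmnrl1-m and 9 in ZmNRL1-OE. Conversely, 120 genes had at least 3 CPM in every zmnrl1-m library and were near 0 in B73 numbers 2 and 3. Of these, 19 (15.8%) had at least 1 CPM in both B73 number 1 libraries. For ZmNRL1-OE it was 23 of 131 (17.6%). Members of the set among those 18 genes are Zm00001d052507 and Zm00001d003789. Without the 2 libraries, 15 of the 20 genes still met the rule, 5 did not and 3 others joined.

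**Figure D1:**
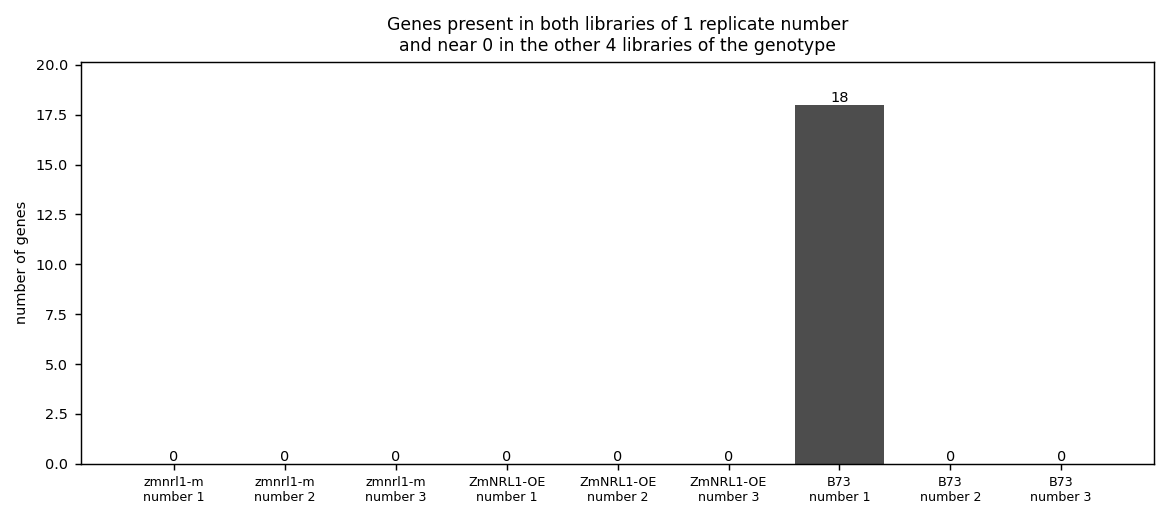
Number of genes with at least 3 CPM in both libraries of 1 replicate number and at most 0.1 CPM in the other 4 libraries of that genotype, for each genotype and replicate number. The bar of B73 number 1 stands at 18 genes and the 8 others at 0.

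The values that chose the genes spread widely. At low nitrate D ran from 0.90 to 5.11 with a median of 1.80 in zmnrl1-m, and from -5.07 to -0.85 with a median of -1.50 in ZmNRL1-OE. At high nitrate it ran from 0.84 to 4.61 (median 1.81) in zmnrl1-m and from -5.01 to -0.83 (median -1.56) in ZmNRL1-OE. The larger of the 2 distances from B73 was that of zmnrl1-m in 10 genes and that of ZmNRL1-OE in 7 genes at both nitrate levels, and in 3 genes it changed with the level. The genes nearest to the thresholds on the inner side were Zm00001d024691, with a D of -0.83 in ZmNRL1-OE at high nitrate, and Zm00001d044874, with 0.84 in zmnrl1-m at high nitrate. Just outside lay Zm00001d046681, with a D of -0.78 in ZmNRL1-OE at high nitrate, and Zm00001d012430, with 0.78 and 0.80 in zmnrl1-m at low and high nitrate, the second short of 0.8 before rounding.

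**Figure D2:**
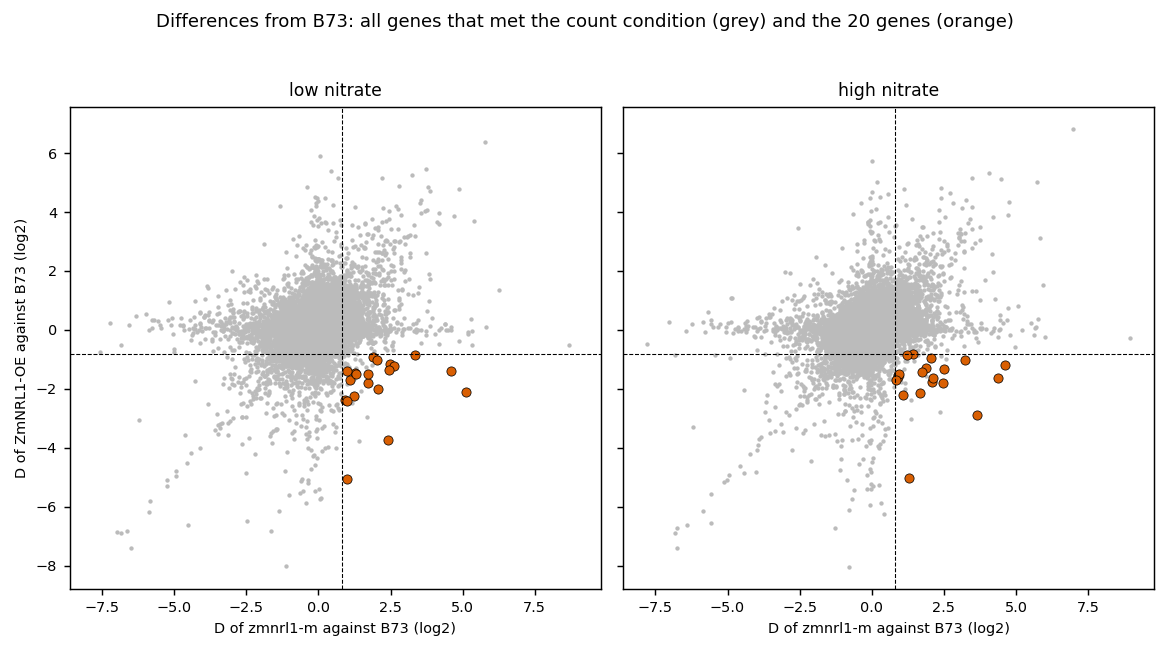
D of ZmNRL1-OE (vertical axis, log2) against D of zmnrl1-m (horizontal axis, log2) at low nitrate (left) and high nitrate (right), with 1 point per gene and dashed lines at the thresholds. Grey points are the 27360 genes that met the count condition, and the 20 genes in orange lie in the lower right corner, which the rule defines. Both axes are measured against the same B73 libraries.

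Between libraries the separation of the groups was as follows, given as a description since the rule used these contrasts. The 3 zmnrl1-m libraries lay above the 3 B73 libraries in 19 of the 20 genes at low nitrate and in 19 at high nitrate, against 26.8% and 27.2% of all tested genes. The ZmNRL1-OE libraries lay below those of B73 in 18 genes at each nitrate level, against 24.1% of all tested genes at low and 20.1% at high nitrate. In 16 genes no line-to-B73 comparison had overlapping replicates. Over both nitrate levels, all 6 zmnrl1-m libraries exceeded all 6 B73 libraries, and these exceeded all 6 ZmNRL1-OE libraries, in 14 genes. The shares of all tested genes with the patterns of these 16 and 14 genes were not counted, and the rule favours both. Summed over the 20 genes, the level was 1434 to 1796 CPM in zmnrl1-m, 52.2 to 74.97 CPM in ZmNRL1-OE and 265 to 298 CPM in B73 over the 6 libraries of each.

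**Figure D3:**
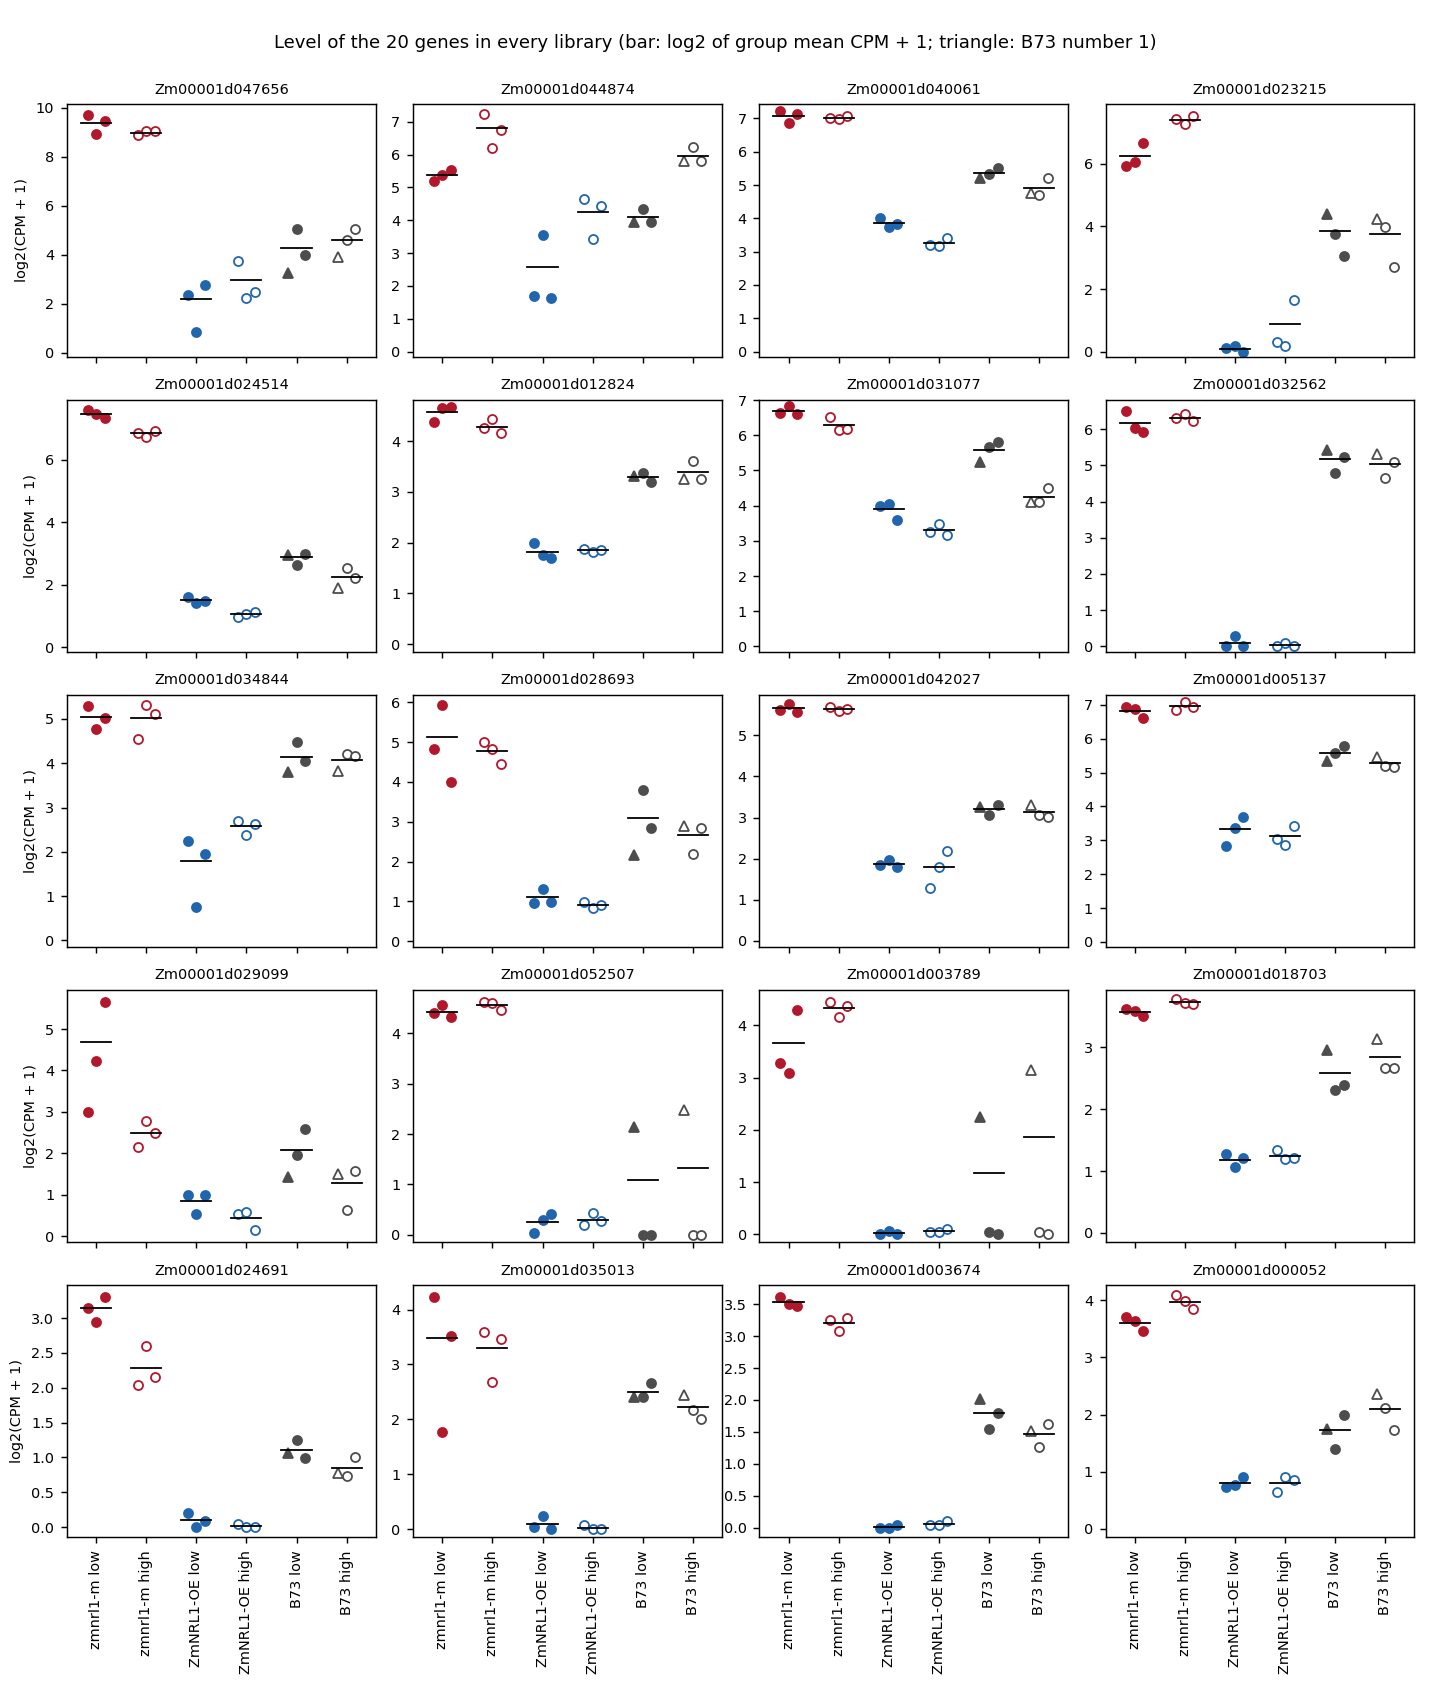
Level of each gene in every library as log2(CPM + 1), 1 panel per gene in the order of mean FPKM, with zmnrl1-m in red, ZmNRL1-OE in blue and B73 in grey. Filled symbols are low and open symbols high nitrate, triangles are the B73 libraries of number 1, and the bar is the log2 of the group's mean CPM + 1. In Zm00001d052507 and Zm00001d003789 the triangles stand far above the other B73 libraries.

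Zm00001d047656 and Zm00001d024514, the genes furthest above B73 in zmnrl1-m by D, were also abundant in that line. D favours abundant genes, because 1 CPM is added to both means. Zm00001d047656 had 823, 491 and 693 CPM in zmnrl1-m, 4.08, 0.784 and 5.71 CPM in ZmNRL1-OE and 8.60, 31.7 and 15.0 CPM in B73 at low nitrate. At high nitrate it had 468, 524 and 525 CPM in zmnrl1-m, 12.5, 3.67 and 4.60 CPM in ZmNRL1-OE and 14.2, 23.6 and 32.3 CPM in B73. The zmnrl1-m libraries stood far apart from all others, while over both nitrate levels the highest ZmNRL1-OE library, at 12.5 CPM, exceeded the lowest B73 library, at 8.60 CPM. The fitted log2 fold change over B73 was 5.19 ± 0.59 in zmnrl1-m and -2.44 ± 0.58 in ZmNRL1-OE at low nitrate, and 4.44 ± 0.57 and -1.80 ± 0.54 at high nitrate (SE from edgeR's model of all 18 libraries). Per gene length it was the most abundant of the 20 on average, with a mean of 169 FPKM (fragments scaled by gene length and library size) over the 18 libraries.

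Zm00001d024514 varied least between replicates in zmnrl1-m, where the SD was 9.38% of the mean at low and 5.98% at high nitrate. In the other groups the SD was 10.2% to 27.9% of the mean, and it was widest in B73 at high nitrate. At low nitrate it had 193, 176 and 160 CPM in zmnrl1-m, 2.05, 1.66 and 1.76 CPM in ZmNRL1-OE and 6.78, 5.25 and 6.97 CPM in B73. At high nitrate the values were 117, 106 and 119 CPM in zmnrl1-m, 0.949, 1.097 and 1.16 CPM in ZmNRL1-OE and 2.74, 4.81 and 3.60 CPM in B73. No library of one genotype reached those of another. The log2 fold change over B73 was 4.84 ± 0.16 in zmnrl1-m and -1.85 ± 0.18 in ZmNRL1-OE at low nitrate, and 4.95 ± 0.16 and -1.84 ± 0.20 at high nitrate (SE).

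Zm00001d023215 was far from B73 on either side. It had 59.4, 65.6 and 99.8 CPM in zmnrl1-m at low nitrate and 171, 154 and 182 CPM at high nitrate. In ZmNRL1-OE it had 0.0770, 0.131 and 0 CPM at low nitrate and 0.251, 0.125 and 2.14 CPM at high nitrate, where 1 library held most of the group's 96 counts. B73 had 19.9, 12.7 and 7.36 CPM at low nitrate, against 17.7, 14.8 and 5.47 CPM at high nitrate, with the number 1 library highest at both levels. The libraries of the 3 genotypes did not overlap. With counts and library totals pooled over the 3 libraries of a group, B73 had 200 times the share of counts of ZmNRL1-OE at low nitrate, where ZmNRL1-OE had 6 counts (95% exact binomial interval 91.7 to 547, for counting error only, here and below).

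Zm00001d042027 and Zm00001d028693 also had a D above 2 in zmnrl1-m at both nitrate levels. Zm00001d042027 averaged 49.3 ± 3.42 CPM in zmnrl1-m, 2.65 ± 0.232 CPM in ZmNRL1-OE and 8.29 ± 0.803 CPM in B73 at low nitrate (SD, n = 3 each), and at high nitrate 48.6 ± 1.70 CPM in zmnrl1-m, 2.47 ± 1.04 CPM in ZmNRL1-OE and 7.79 ± 0.95 CPM in B73. Zm00001d028693 averaged 34.2 ± 23.4 CPM in zmnrl1-m, 1.14 ± 0.298 CPM in ZmNRL1-OE and 7.51 ± 4.82 CPM in B73 at low nitrate. Its low-nitrate zmnrl1-m libraries ran from 15.0 to 60.2 CPM, so the size of its difference is known less well than that of Zm00001d042027.

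A group of 5 genes was all but absent from ZmNRL1-OE, with means under 0.1 CPM at both nitrate levels. The most abundant of them in B73 was Zm00001d032562. At low nitrate it had 88.9, 64.0 and 60.1 CPM in zmnrl1-m, 0, 0.218 and 0 CPM in ZmNRL1-OE and 42.2, 26.6 and 36.3 CPM in B73. At high nitrate it had 78.3, 84.5 and 74.0 CPM in zmnrl1-m, 0, 0.0627 and 0 CPM in ZmNRL1-OE and 38.7, 24.2 and 33.0 CPM in B73. All 7 counts in ZmNRL1-OE came from the libraries of number 2, and the other 4 libraries had none. Pooled over libraries in the same way, B73 had 624 times the share of counts of ZmNRL1-OE at low nitrate (interval 267 to 1922) and 1719 times at high nitrate (interval 476 to 14200).

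The other 4 of these genes were scarcer. Zm00001d035013 averaged 10.2 ± 7.67 CPM in zmnrl1-m, 0.0666 ± 0.0940 CPM in ZmNRL1-OE and 4.64 ± 0.617 CPM in B73 at low nitrate (SD, n = 3 each). Its zmnrl1-m libraries had 17.7, 2.40 and 10.5 CPM there, and the lowest of them was below every B73 library. Zm00001d003674 averaged 10.6 ± 0.604 CPM in zmnrl1-m, 0.0109 ± 0.0188 CPM in ZmNRL1-OE and 2.48 ± 0.570 CPM in B73 at low nitrate, and the 6 libraries of the 3 genotypes did not overlap. Zm00001d024691 had 1 count in ZmNRL1-OE at high nitrate and 8 at low nitrate, and 0 counts in 3 of the 6 libraries. Its level averaged 7.82 ± 1.09 CPM in zmnrl1-m, 0.0731 ± 0.0773 CPM in ZmNRL1-OE and 1.15 ± 0.202 CPM in B73 at low nitrate. The last of these genes, Zm00001d003789, rests on the B73 libraries of number 1.

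For Zm00001d003789 and Zm00001d052507 the B73 level came almost wholly from the libraries of number 1. Zm00001d003789 had 8.72, 7.52 and 18.6 CPM in zmnrl1-m, 0, 0.0436 and 0 CPM in ZmNRL1-OE and 3.73, 0.0281 and 0 CPM in B73 at low nitrate. At high nitrate it had 20.9, 16.8 and 19.7 CPM in zmnrl1-m, 0.0279, 0.0313 and 0.0775 CPM in ZmNRL1-OE and 7.85, 0.0299 and 0 CPM in B73. The B73 libraries of numbers 2 and 3 held 2 counts of the gene in all. Zm00001d052507 had 20.2, 22.6 and 19.0 CPM in zmnrl1-m, 0.0257, 0.218 and 0.327 CPM in ZmNRL1-OE and 3.41, 0 and 0 CPM in B73 at low nitrate. Its high-nitrate values were 23.7, 23.4 and 21.2 CPM in zmnrl1-m, 0.140, 0.345 and 0.207 CPM in ZmNRL1-OE and 4.54, 0 and 0 CPM in B73, so that the ZmNRL1-OE libraries lay above 2 of the 3 B73 libraries. Without B73 number 1 neither gene met the count condition, and D of ZmNRL1-OE was 0.00069 at low and 0.043 at high nitrate for Zm00001d003789, and 0.25 and 0.30 for Zm00001d052507. Their D in zmnrl1-m was then larger, at 3.64 and 4.31 for Zm00001d003789 and at 4.43 and 4.57 for Zm00001d052507, low nitrate first.

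The remaining 9 genes were detected in every ZmNRL1-OE library and had a D under 2 in zmnrl1-m at one nitrate level or both. Zm00001d040061 had 148, 116 and 139 CPM in zmnrl1-m, 15.2, 12.2 and 13.3 CPM in ZmNRL1-OE and 36.1, 39.5 and 44.3 CPM in B73 at low nitrate. Its high-nitrate values were 127, 124 and 135 CPM in zmnrl1-m, 8.24, 8.02 and 9.55 CPM in ZmNRL1-OE and 26.2, 24.8 and 35.8 CPM in B73. The genotypes did not overlap, and the log2 fold change over B73 was 1.78 ± 0.14 in zmnrl1-m and -1.63 ± 0.15 in ZmNRL1-OE at low nitrate (SE). Zm00001d005137 averaged 111 ± 12.2 CPM in zmnrl1-m, 9.10 ± 2.94 CPM in ZmNRL1-OE and 46.9 ± 7.03 CPM in B73 at low nitrate (SD, n = 3 each). Zm00001d031077 averaged 102 ± 9.07 CPM in zmnrl1-m, 13.9 ± 2.42 CPM in ZmNRL1-OE and 46.9 ± 9.07 CPM in B73 at low nitrate.

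The scarcer of these genes followed the same order. Zm00001d012824 averaged 22.8 ± 2.54 CPM in zmnrl1-m, 2.54 ± 0.384 CPM in ZmNRL1-OE and 8.79 ± 0.628 CPM in B73 at low nitrate (SD, n = 3 each), with a log2 fold change over B73 of 1.41 ± 0.14 in zmnrl1-m and -1.86 ± 0.15 in ZmNRL1-OE (SE). Zm00001d034844 averaged 31.9 ± 5.89 CPM in zmnrl1-m, 2.44 ± 1.58 CPM in ZmNRL1-OE and 16.6 ± 4.39 CPM in B73 at low nitrate. Zm00001d018703 averaged 10.8 ± 0.477 CPM in zmnrl1-m, 1.27 ± 0.165 CPM in ZmNRL1-OE and 5.01 ± 1.54 CPM in B73 there. Zm00001d000052, the scarcest of the 20 per length with a mean of 1.70 FPKM, averaged 11.2 ± 1.01 CPM in zmnrl1-m, 0.749 ± 0.116 CPM in ZmNRL1-OE and 2.33 ± 0.683 CPM in B73 there. In each of these 4 genes the 6 libraries of every genotype kept apart from those of the others. Zm00001d034844 no longer met the rule without B73 number 1, when its D in zmnrl1-m was 0.76 at low nitrate. Zm00001d044874 and Zm00001d029099, which moved with nitrate, are described with the nitrate responses.

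A further 8 genes met the 4 thresholds and failed the count condition, all because ZmNRL1-OE had at most 3 counts in its 6 libraries. In 3 of them, Zm00001d029700, Zm00001d031835 and Zm00001d036404, ZmNRL1-OE had none. The most abundant of the 8 in B73 was Zm00001d014347, which averaged 52.9 ± 5.91 CPM in zmnrl1-m and 26.3 ± 4.53 CPM in B73 at low nitrate (SD, n = 3 each), with 2 counts in ZmNRL1-OE over both levels. Zm00001d005795 likewise had 2 counts in ZmNRL1-OE, against 57.2 ± 9.83 CPM in zmnrl1-m and 10.3 ± 1.08 CPM in B73 at low nitrate. The other 3, Zm00001d009803, Zm00001d023573 and Zm00001d036871, had 0 to 2 counts in each B73 library of numbers 2 and 3 and 82 to 278 counts in those of number 1.

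How far the pattern carried over to libraries that had not chosen the genes was read by applying the rule to 2 replicate numbers and measuring D in the number left out. Leaving out number 1, 16 genes were chosen, and in the libraries left out 16 had all 4 differences in the rule's directions and 11 were past all 4 thresholds. Leaving out number 2, the counts were 23 chosen, 18 in the same directions and 10 past the thresholds, and leaving out number 3 they were 18, 16 and 12. Among all genes that met the count condition, 5.49%, 3.71% and 4.96% had those directions in number 1, 2 and 3, and 0.0976%, 0.0524% and 0.0821% were past the thresholds. These shares cover chosen and unchosen genes alike. The genes chosen here were not the set itself. Leaving out number 1, 2 and 3, 13, 17 and 14 of the chosen genes belonged to it. With the B73 libraries of number 1 out of the choice as well, 11 of 21 genes were past the thresholds in number 2 and 9 of 12 in number 3. There the choice rested on 1 B73 library per nitrate level. The labels do not say that the replicates came from separate plantings. The libraries left out were of the same genotypes as those that chose the genes. The counts therefore show how alike the libraries of a genotype were, and they do not test the set.

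The response to nitrate, low against high within a genotype, was not used by the rule. It was tested with edgeR's quasi-likelihood test on all 27134 genes that passed the filter on low counts, among them all 20 genes, and a gene was called when its Benjamini-Hochberg adjusted p was under 0.05. In zmnrl1-m 4 of the 20 genes were called, against 17.9% of all tested genes, of which 3 rose and 1 fell at low nitrate (8.89% and 8.97% of all). In ZmNRL1-OE 4 genes were called against 23.9%, with 3 up and 1 down (10.8% and 13.1%). In B73 4 were called against 14.7%, with 3 up and 1 down (9.24% and 5.49%). Over the 3 genotypes, 6 of the 20 genes were called at least once, against 39.2% of all tested genes, and 2 were called in all 3 in a single direction, against 3.77%. No difference between these shares was tested. The fitted log2 fold change was above 0 in 12 of the 20 genes in zmnrl1-m, 10 in ZmNRL1-OE and 13 in B73, with medians of 0.046 in zmnrl1-m, 0.0055 in ZmNRL1-OE and 0.086 in B73. Without regard to sign the medians were 0.36 in zmnrl1-m, 0.86 in ZmNRL1-OE and 0.44 in B73, above those of all tested genes (0.21 in zmnrl1-m, 0.24 in ZmNRL1-OE and 0.21 in B73). In ZmNRL1-OE 6 of the 20 genes had 0 counts in at least 1 library. In B73 the log2 fold changes of Zm00001d003789 (-1.28 ± 1.25, SE) and Zm00001d052507 (-0.68 ± 1.20, SE) rested on the libraries of number 1. Replicates of the 20 genes also spread more widely than those of all genes, as given below. The part of low counts and of this spread in the medians was not tested.

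**Figure D4:**
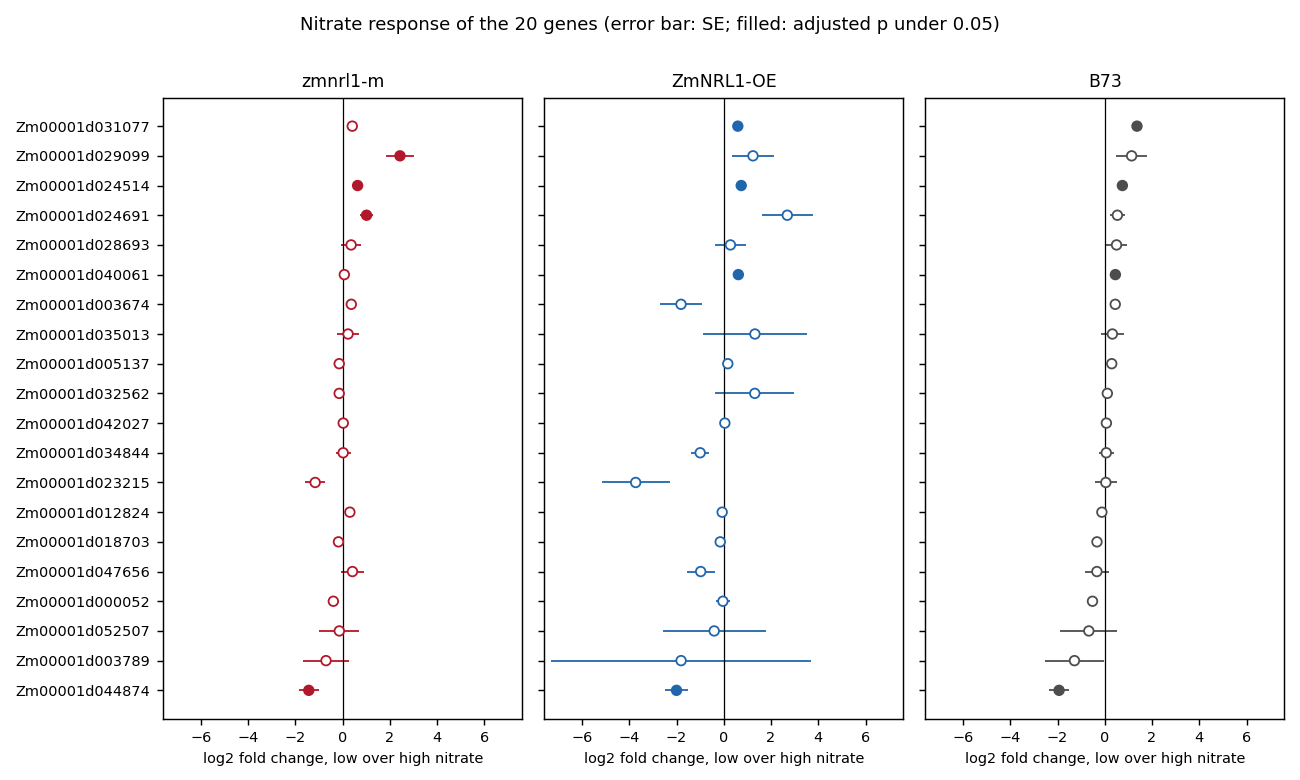
Log2 fold change of low over high nitrate for each gene in zmnrl1-m, ZmNRL1-OE and B73 (panels left to right, genes ordered by the value in B73), with SE as error bars and filled points for an edgeR adjusted p under 0.05. Zm00001d024514 stands to the right of 0 and Zm00001d044874 to the left of 0 with filled points in every panel, and the widest bars belong to genes with few counts in ZmNRL1-OE.

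Zm00001d044874 fell at low nitrate in all 3 genotypes. It had 35.4, 40.5 and 45.6 CPM at low nitrate, against 151, 72.0 and 108 CPM at high nitrate in zmnrl1-m. In ZmNRL1-OE it had 2.23, 10.7 and 2.09 CPM at low nitrate, against 23.9, 9.78 and 20.6 CPM at high nitrate, so that 1 low-nitrate library exceeded 1 high-nitrate library. In B73 it had 14.5, 19.1 and 14.6 CPM at low nitrate, against 54.4, 73.7 and 54.7 CPM at high nitrate, with no overlap. The log2 fold change was -1.44 ± 0.42 in zmnrl1-m, -2.0 ± 0.48 in ZmNRL1-OE and -1.94 ± 0.43 in B73 (SE), and the edgeR adjusted p were 0.0249, 0.00724 and 0.00729. When low-nitrate replicate 2 of ZmNRL1-OE was left out the log2 fold change in that line was -3.07. Fitted without the other genotypes, ZmNRL1-OE lost the call (adjusted p = 0.0617, and 0.122 with the replicate number as a block). In zmnrl1-m the call was lost when any single library of the line other than high-nitrate replicate 2 was left out (adjusted p of 0.0541 to 0.0951). The zmnrl1-m call was also lost with limma on log2(FPKM + 0.1). At high nitrate a B73 library, at 73.7 CPM, exceeded a zmnrl1-m library, at 72.0 CPM, and without B73 number 1 the gene no longer met the rule (D of 0.77 in zmnrl1-m at high nitrate).

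Zm00001d024514 rose at low nitrate in all 3 genotypes, by a log2 fold change of 0.63 ± 0.13 in zmnrl1-m, 0.74 ± 0.22 in ZmNRL1-OE and 0.74 ± 0.16 in B73 (SE). The edgeR adjusted p were 0.00309, 0.0223 and 0.00626, and low- and high-nitrate libraries did not overlap in any of the genotypes. In ZmNRL1-OE the call was lost without its replicate 1 at low or at high nitrate (adjusted p of 0.101 and 0.0800), with its libraries fitted alone and the replicate number as a block (0.116), and with limma on log2(FPKM + 1), where the log2 fold change was 0.33 (0.0593). In a fit of the B73 libraries alone, the adjusted p was 0.0559, and 0.0610 with the replicate number as a block. The difference in response from B73 was -0.11 ± 0.21 for zmnrl1-m (SE) and -0.0032 for ZmNRL1-OE on the log2 scale, neither of them called. No SE is given for the second value, because the way SEs were derived is unreliable so close to 0.

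In zmnrl1-m 2 further genes rose. Zm00001d029099 had 6.96, 17.7 and 49.7 CPM at low nitrate, against 3.46, 5.89 and 4.57 CPM at high nitrate in that line, a log2 fold change of 2.42 ± 0.58 (SE, edgeR adjusted p = 0.00836). The groups did not overlap, but without low-nitrate replicate 3 the log2 fold change was 1.39 and the call was lost (adjusted p = 0.0906). In ZmNRL1-OE the gene averaged 0.805 ± 0.320 CPM at low nitrate, against 0.350 ± 0.216 CPM at high nitrate, and in B73 3.21 ± 1.70 and 1.44 ± 0.785 CPM (SD, n = 3 each), with neither difference called. Over both nitrate levels its libraries overlapped between zmnrl1-m and B73 and between ZmNRL1-OE and B73. Without B73 number 1 it no longer met the rule (D of -0.74 in ZmNRL1-OE at high nitrate). Zm00001d024691 had 7.86, 6.70 and 8.89 CPM at low nitrate, against 3.13, 5.04 and 3.47 CPM at high nitrate in zmnrl1-m, a log2 fold change of 1.01 ± 0.27 (edgeR adjusted p = 0.0156), and its call was lost without replicate 3 of that line at low nitrate or its replicate 1 or 3 at high nitrate (adjusted p of 0.0633 to 0.0740).

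In ZmNRL1-OE and B73 the other 2 risers were Zm00001d031077 and Zm00001d040061. Zm00001d031077 had 14.9, 15.6 and 11.1 CPM at low nitrate, against 8.52, 10.2 and 7.98 CPM at high nitrate in ZmNRL1-OE, and 36.9, 49.4 and 54.6 CPM at low nitrate, against 16.3, 16.1 and 21.9 CPM at high nitrate in B73. Its log2 fold change was 0.59 ± 0.18 in ZmNRL1-OE and 1.36 ± 0.17 in B73 (SE), with edgeR adjusted p of 0.0225 and 5.49e-05. The call in ZmNRL1-OE was lost without its replicate 1 or 2 at low nitrate or its replicate 1 or 3 at high nitrate (adjusted p of 0.0513 to 0.0848). In zmnrl1-m it had 98.4, 113 and 95.8 CPM at low nitrate, against 90.9, 69.7 and 71.6 CPM at high nitrate, without overlap, and a log2 fold change of 0.41 ± 0.16 that was not called (adjusted p = 0.0926). Zm00001d040061 had log2 fold changes of 0.62 ± 0.15 in ZmNRL1-OE and 0.45 ± 0.14 in B73, with edgeR adjusted p of 0.00796 and 0.0410. The call in B73 was lost without B73 replicate 2 or 3 at low nitrate, B73 replicate 1 or 2 at high nitrate, or replicate 1 or 3 of zmnrl1-m at high nitrate (adjusted p of 0.0502 to 0.181), and without both B73 libraries of number 1 (0.0790). A fit of the B73 libraries alone lost this call too. In zmnrl1-m its log2 fold change was 0.068 ± 0.13 (adjusted p = 0.781).

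Whether a line's response differed from that of B73 was tested as an interaction, the difference between a line's distance from B73 at low nitrate and that at high nitrate. The rule bounds each of these distances from 1 side, so the interaction is built from contrasts that chose the genes. Zm00001d031077 was the only one of the 20 genes called, with a response smaller in zmnrl1-m than in B73 by 0.96 on the log2 scale, against 8.93% of all tested genes called in either direction and 5.1% in this direction. The difference was -0.96 ± 0.23 (SE, edgeR adjusted p = 0.0253), and the call was lost without B73 replicate 2 or 3 at low nitrate, B73 replicate 2 at high nitrate or zmnrl1-m replicate 3 at low nitrate (adjusted p of 0.0598 to 0.0684). For ZmNRL1-OE 0 of the 20 genes were called by edgeR or DESeq2, against 0.0479% of all tested genes by edgeR. An unadjusted p under 0.05 by edgeR was reached by 3 of the 20 genes, Zm00001d031077 among them. In ZmNRL1-OE its difference from B73 was -0.77 ± 0.24 (SE, edgeR adjusted p = 0.542). Its fitted response was thus smaller than that of B73 in both lines, and called so in zmnrl1-m alone. The share of all tested genes at that unadjusted threshold was not counted, and 0.0479% is no baseline for it.

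Per gene length, the set was below the median of the root transcriptome in B73. In that genotype the median was 3.82 FPKM over the 20 genes, with quartiles of 2.31 and 14.5 FPKM, against 6.79 FPKM with quartiles of 1.87 and 17.1 FPKM over the genes that met the count condition. The set with the turned rule was also below it, with a median of 4.91 FPKM in B73. Over all 18 libraries the median was 8.245 FPKM for the 20 genes and 6.96 FPKM for the genes that met the count condition. The gene length implied by counts and FPKM had a median of 1516 bases for the 20 genes and of 1805 bases for 25366 genes with enough counts. The spread between replicates is given as a description. Among genes with a mean of at least 5 CPM, the median coefficient of variation at low nitrate was 12.5% for the 20 genes in zmnrl1-m (8.27% for all such genes), 24.9% for 4 genes in ZmNRL1-OE (8.35%) and 19.3% for 13 genes in B73 (8.76%). At high nitrate it was 8.42% for 18 genes in zmnrl1-m (7.82%), 24.1% for 5 genes in ZmNRL1-OE (7.88%) and 19.4% for 12 genes in B73 (8.27%), so that in zmnrl1-m it was close to that of all such genes.

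The identifiers of the 20 genes lay far from each other in number. No gene had another of the set within 10 or within 50 identifier numbers, and the closest, Zm00001d003674 and Zm00001d003789, lay 115 apart. In the set with the turned rule 0 of 50 genes had a neighbour within 10 numbers and 2 had one within 50 (4.0%). Zm00001d023216, which joined when B73 number 1 was left out, carries the number next to that of Zm00001d023215. Chromosome positions were not used here, because no annotation of the files' build was at hand.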

How the data were processed

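The authors deposited whole-number counts of reads for each gene, not normalised, and FPKM values, which they scaled by gene length and library size. The submitters' processing notes name bcl2fastq 2.19.1, Trim Galore 1.18, HISAT2 2.2.1, featureCounts 2.0.1 and the build B73 RefGen_v4. How strand and multiply matching reads were handled is not given in the sources used here, so near-identical, overlapping or antisense genes have uncertain counts. CPM was computed from the counts and the library totals, without further scaling. Tests used edgeR 4.0.16 in R 4.3.3 with filterByExpr (minimum count 10), TMM scaling, 1 mean per group over 18 libraries and 12 residual degrees of freedom, with Benjamini-Hochberg adjustment over 27134 genes. SEs were derived from the fold changes and the F statistics. The fit was also run on simulated counts, drawn with edgeR's average spread for genes of like level. That run does not bear on genes with a wider spread.

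The members, lists and tests were chosen with earlier results of these data known. Genes described in most detail were those leading a nitrate contrast (at least 5 CPM in 1 group), the most abundant per length, those furthest from B73 and those at the thresholds. Other genes were named after their values were seen. Gene lists by name were not tested, since the RefSeq table for Zm-B73-REFERENCE-NAM-5.0, with 49888 genes, held 0 of the 41632 identifiers. Deviations of same-numbered libraries correlated with r = 0.41, 0.12 and 0.26 between the nitrate levels of B73, and numbers were taken to pair those alone. The main tests did not use this pairing. P-values measure the spread between these libraries, which may be technical. Exact binomial intervals are at 95%. Alternatives were DESeq2 1.42.0, limma 3.58.1 on log2(FPKM + 1) or log2(FPKM + 0.1), other scalings and filters, a replicate block, fits of the genotypes compared alone, and single libraries left out. Leaving out both B73 libraries of number 1, and the block within the genotypes compared, were chosen after seeing the data.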

Additional observations from a re-analysis of the deposited data

Results flagged for a closer look

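In the interaction test the response of Zm00001d031077 to nitrate was called smaller in zmnrl1-m than in B73. It rose at low nitrate by a log2 fold change of 0.41 ± 0.16 in zmnrl1-m, which was not called, and by 1.36 ± 0.17 in B73, a difference of -0.96 ± 0.23 (SE, edgeR adjusted p = 0.0253). Over 29 alternatives the difference lay between -1.12 and -0.83 and the adjusted p between 0.00311 and 0.0684. Without both B73 libraries of number 1 it was -1.04 (adjusted p = 0.0131). The call was lost without B73 replicate 2 or 3 at low nitrate, B73 replicate 2 at high nitrate or zmnrl1-m replicate 3 at low nitrate. The difference is built from the contrasts that chose the 20 genes, so it is given as a description, and 1 called gene of 20 stands against 8.93% of all tested genes. In ZmNRL1-OE the response of this gene differed from that of B73 by -0.77 ± 0.24 (SE), which was not called (edgeR adjusted p = 0.542). The smaller fitted response was therefore not particular to zmnrl1-m.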

How the results depend on the processing

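No fold change of a called gene reversed under any of the 29 alternatives run for it. Counts of called genes kept within 1.5 times the value given, apart from these. The 4 genes called in zmnrl1-m were 7 with limma on log2(FPKM + 1), and 1 to 5 with 1 library left out (1 without zmnrl1-m replicate 3 at low nitrate, 2 without its replicate 3 at high nitrate). The 4 genes of ZmNRL1-OE were 2 to 5 with 1 library left out (2 without its high-nitrate replicate 1). The 4 genes of B73 were 2 when its libraries were fitted alone, and 3 to 5 with 1 library left out. The 1 gene that differed in response between zmnrl1-m and B73 became 0 without B73 replicate 2 or 3 at low nitrate, B73 replicate 2 at high nitrate or zmnrl1-m replicate 3 at low nitrate, and stayed at 1 without any other library. With the replicate number as a block in the fit of all libraries, 4, 4 and 4 genes were called in zmnrl1-m, ZmNRL1-OE and B73 and 1 and 0 for the differences, and no call changed. That block is shared by all genotypes, so it cannot represent a pairing in B73 alone. With the block in fits of the genotypes compared alone, 6, 2 and 3 genes were called. The rule was more sensitive. It took 60 genes with 0.1 CPM added in place of 1, 42 with a threshold of 0.6, 9 with a threshold of 1, and 16 to 23 with 1 library left out. In the replicate number left out, 33 of 57 chosen genes (57.9%) were past all thresholds, 60 of 146 (41.1%) with 0.1 CPM added and 20 of 33 (60.6%) without B73 number 1, where 2 numbers in place of 3 were left out. A gene chosen under several numbers is counted for each, and some of the chosen genes lay outside the set. Depth limits the values in ZmNRL1-OE, where 6 of the 20 genes had 0 counts in at least 1 library.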
